A study of Mus musculus with 6 samples.

Results

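Cell death through the mitochondrion was followed in embryonic mouse hearts by the transcripts of 10 genes of the BCL2 family, found by gene symbol among the 54532 genes of the raw count table: *Bax*, *Bak1*, *Bid*, *Bad*, *Bbc3*, *Pmaip1*, *Bcl2l11*, *Bcl2*, *Bcl2l1* and *Mcl1*. All 10 had a row, and all 10 were among the 19372 genes with enough counts to be tested. By edgeR's test none of them passed the thresholds for a difference between *Smyd1-KO* and wild-type hearts. The one member whose 2 genotypes did not overlap was *Bbc3*, which encodes the BH3-only protein PUMA, and it passed the same thresholds by DESeq2.

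BCL2 family proteins decide whether the outer mitochondrial membrane stays intact. BAX and BAK, the effectors, form pores that release cytochrome c, which assembles with APAF1 and caspase 9 into the apoptosome. BCL2, BCL-XL (from *Bcl2l1*) and MCL1 hold the effectors in check, and the BH3-only proteins BID, BAD, PUMA, NOXA (from *Pmaip1*) and BIM (from *Bcl2l11*) bind them, or the effectors themselves, in answer to DNA damage, loss of growth factors or a stressed endoplasmic reticulum. Much of this control acts on the proteins, by cleavage, phosphorylation and degradation, which RNA does not show.

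RNA-seq was performed on poly A RNA of single hearts at E9.5, 3 from wild-type (WT) embryos and 3 from embryos homozygous for a null allele of *Smyd1* (*Smyd1-KO*), a gene for a histone methyltransferase of striated muscle. The null allele is carried in every cell of the embryo, neither group was treated, and whole hearts were compared, not a cell type. The replicates of a genotype are hearts of separate embryos. Libraries held 48627825 to 64217529 counts. Levels are given as CPM, the counts of a gene per 1000000 counts of its library, with library sizes scaled by the trimmed mean of M values (TMM). A gene was called when its Benjamini-Hochberg adjusted *P*, over all tested genes, was under 0.05 and its log2 fold change was at least 0.5 in size. *Smyd1* itself was at 101, 222 and 206 CPM in *Smyd1-KO* and at 414, 379 and 270 CPM in WT. The genotypes did not overlap, and the log2 fold change was −1.01 ± 0.300 (SE), with an adjusted *P* of 0.0973 by edgeR's quasi-likelihood test, short of a call, and of 0.00538 by DESeq2, which called it lower. The part of the gene that the null allele lacks is not given in the sources used here, so reads from the remaining part may be among these counts.

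The hearts differed in the summed RNA levels of cell type markers, and these differences accompany the values below. The summed level of 15 cardiomyocyte markers ran from 10180 to 21290 CPM in *Smyd1-KO* and from 13400 to 22640 CPM in WT, and was lowest in *Smyd1-KO* heart 1. The summed level of 19 erythroid markers ran from 29.8 to 295.7 CPM in *Smyd1-KO* and from 774.5 to 1040 CPM in WT, and was again lowest in *Smyd1-KO* heart 1. The 8 epicardial markers summed to 270.1 to 477.3 CPM in *Smyd1-KO* against 160.6 to 195.6 CPM in WT, and the 11 foregut and liver bud markers to 173.4 to 245.9 CPM against 83.9 to 166.9 CPM. Of all tested genes, edgeR called 2.86% higher and 1.42% lower. Of the tested markers, it called 6 of 19 erythroid genes lower and 0 of 15 cardiomyocyte genes. Whatever their *P*, 18 of the 19 erythroid genes (median log2 fold change −2.7) and 11 of the 15 cardiomyocyte genes were lower. Higher were 8 of 8 epicardial, 9 of 10 foregut and 8 of 13 endothelial genes. Called higher was 1 gene each among these epicardial (*Krt19*), foregut (*Sox17*) and endothelial genes (*Flt1*). The paper describes *Sox17* as needed by the developing endocardium, so its call is not particular to foregut tissue. The 13 endothelial and endocardial markers summed to 902.6 to 1378 CPM in *Smyd1-KO* and to 847.9 to 1034 CPM in WT. The 12 macrophage and myeloid markers, of which 5 had enough counts to be tested and 0 were called by edgeR, summed to 8.68 to 10.8 CPM and to 8.12 to 11.8 CPM. DESeq2 called 14 erythroid and 2 endothelial genes lower. It called higher 3 epicardial and 2 endothelial genes and 1 gene each of the foregut, cardiomyocyte and macrophage lists. Of all genes it tested, DESeq2 called 5.94% higher and 3.27% lower. The part of cell content in the results on the family was not tested. In whole hearts, fewer cells of a type and less RNA per cell cannot be told apart.

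The feature that ties the family together is the BH3 motif, and it is shown here for the pair of effectors, for the 2 BH3-only genes that the upstream factors described below are best known to act on, and for 2 anti-apoptotic genes. Translation of the longest complete coding transcript (GENCODE M21, GRCm38) and a search for a leucine with, 4 residues on, a glycine, alanine or serine followed at once by an aspartate gave 1 match in each of 9 members and 2 in *Pmaip1*. Other proteins were not searched, so the matches are not set against a background rate. The coding strand is printed 5′ to 3′, and the capitals mark the 6 codons of the match.
*Bax* (chr7:45465997-45466035, minus strand, residues 63 to 68): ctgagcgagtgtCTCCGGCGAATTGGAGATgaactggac
*Bak1* (chr17:27022531-27022569, minus strand, residues 76 to 81): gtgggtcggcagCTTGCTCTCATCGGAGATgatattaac
*Bbc3* (chr7:16313761-16313799, plus strand, residues 141 to 146): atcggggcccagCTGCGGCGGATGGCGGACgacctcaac
*Bcl2l11* (chr2:128147138-128147176, plus strand, residues 150 to 155): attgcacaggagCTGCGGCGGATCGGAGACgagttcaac
*Bcl2* (chr1:106712575-106712613, minus strand, residues 94 to 99): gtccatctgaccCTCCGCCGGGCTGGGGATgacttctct
*Mcl1* (chr3:95659424-95659462, plus strand, residues 194 to 199): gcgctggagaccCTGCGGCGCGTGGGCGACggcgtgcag
Each of these stretches lies within 1 coding exon.

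Over the whole transcriptome, edgeR called 2.86% of the 19372 tested genes higher in *Smyd1-KO* hearts and 1.42% lower. Of the 10 members, 0 were called higher and 0 lower by edgeR, 0 were called by limma voom, which called 4.19% of all genes, and 1, *Bbc3*, was called higher by DESeq2, which called 5.94% of the genes it tested higher and 3.27% lower. At an unadjusted *P* under 0.05, edgeR picked out 1 member, again *Bbc3*, where it picked out 25.1% of all tested genes. The genotypes did not overlap in 1 member, where 31.3% of all tested genes did not overlap. The median log2 fold change of the members was −0.06, and that of all tested genes was −0.003. The members' levels in the single hearts are drawn in the plot of CPM by genotype.

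**Figure D1:**
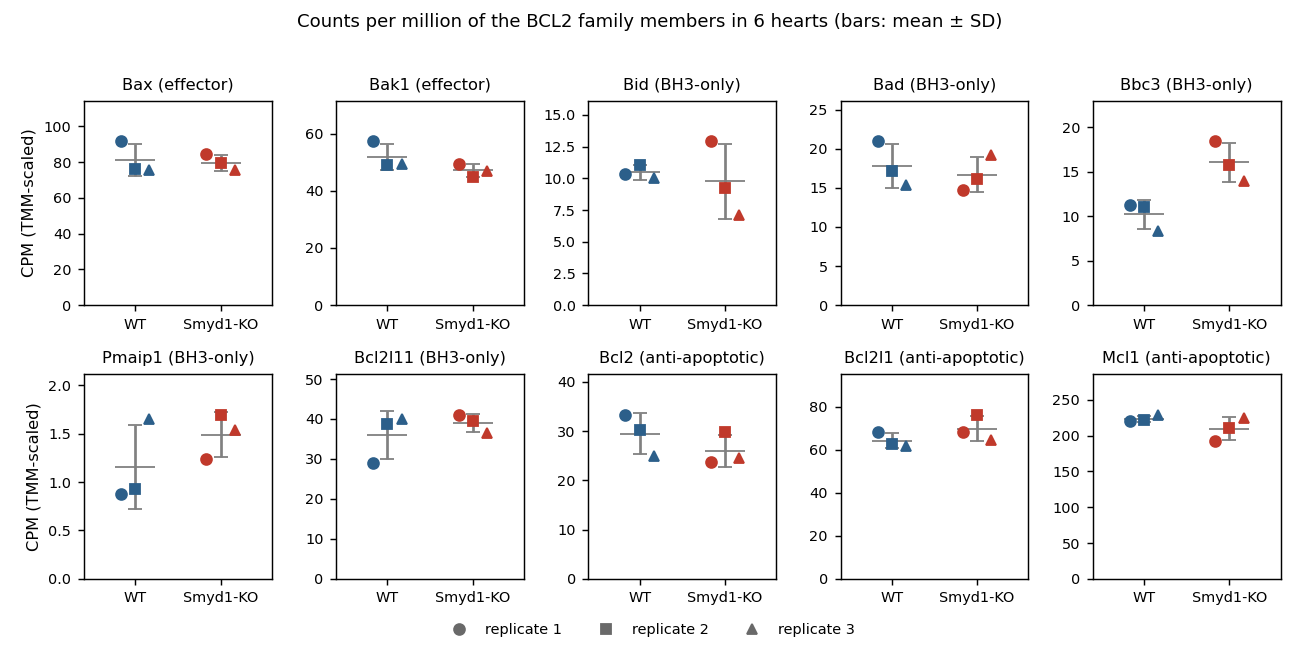
CPM (TMM-scaled, linear axes from 0) of the 10 BCL2 family members in the 3 WT hearts (blue) and 3 *Smyd1-KO* hearts (red), 1 symbol per replicate number, with the mean and SD of each genotype in grey. *Bbc3* is the panel in which every *Smyd1-KO* heart (14.0 to 18.4 CPM) lies above every WT heart (8.32 to 11.3 CPM), and in the other 9 panels the genotypes overlap.

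Neither effector was called, and the genotypes overlapped in both. *Bax* (ENSMUSG00000003873, chr7:45461697-45466898, minus strand, GRCm38), the effector that moves from the cytosol to the mitochondrion, was at 84.3, 79.5 and 75.4 CPM in *Smyd1-KO* and at 91.6, 76.2 and 75.6 CPM in WT. WT heart 1 was the highest of the 6 and the remaining hearts were interleaved. Its log2 fold change was −0.02 ± 0.0982 (SE), with a 95% interval from −0.25 to 0.21 and an adjusted *P* of 0.903. *Bak1* (ENSMUSG00000057789, chr17:27019810-27029009, minus strand), the effector that resides in the outer membrane, was at 49.3, 44.9 and 47.1 CPM in *Smyd1-KO* and at 57.2, 49.1 and 49.3 CPM in WT. The highest *Smyd1-KO* heart and the lower WT hearts were within 1 CPM of each other. The difference on the log2 scale was −0.14 ± 0.0900 (95% interval −0.35 to 0.07, adjusted *P* = 0.378). The exons of *Bak1* share 437 bases with *Ggnbp1* on the opposite strand, and whether the counting used strand is not given in the sources used here.

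Among the 5 BH3-only genes, *Bbc3* had the largest difference. *Bbc3* (ENSMUSG00000002083, chr7:16308393-16318205, plus strand) received 894, 934 and 799 counts in the *Smyd1-KO* hearts and 671, 698 and 554 counts in the WT hearts. Scaled to depth these were 18.4, 15.8 and 14.0 CPM against 11.3, 11.0 and 8.32 CPM. Every *Smyd1-KO* heart was above every WT heart, with *Smyd1-KO* heart 1 highest and WT heart 3 lowest. Over all tested genes, 15.9% had *Smyd1-KO* hearts that were all above the WT hearts. The means were 16.1 ± 2.21 and 10.2 ± 1.63 CPM (SD, n = 3 each), a 1.58-fold difference with a 95% interval from 1.20 to 2.07. On the log2 scale this was 0.66 ± 0.169 (SE).

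The call on *Bbc3* differed between tools that fit the same counts. The adjusted *P* was 0.0694 by edgeR and 0.0669 by limma voom, both short of the threshold, and 0.00533 by DESeq2, where the log2 fold change was the same 0.66. With each heart left out in turn, edgeR gave a log2 fold change between 0.53 and 0.75 and an adjusted *P* between 0.0968 and 0.189, so the gene was called in 0 of 6 such fits. Without *Smyd1-KO* heart 1, the heart with the lowest cardiomyocyte and erythroid marker sums and the highest *Bbc3*, the log2 fold change was 0.55.

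The other 4 BH3-only genes had overlapping genotypes. *Bcl2l11* (ENSMUSG00000027381, chr2:128126038-128162547, plus strand), whose product BIM responds to withdrawal of growth factors, was at 41.0, 39.4 and 36.5 CPM in *Smyd1-KO* and at 29.1, 38.8 and 40.0 CPM in WT. WT heart 1 stood below the other 5, which ran together. The log2 fold change was 0.11 ± 0.133 (95% interval −0.20 to 0.43, adjusted *P* = 0.634), and it was −0.01 without WT heart 1. *Pmaip1* (ENSMUSG00000024521), a p53 target whose product NOXA binds MCL1, had the fewest counts of the 10 members, 60, 100 and 88 in *Smyd1-KO* and 52, 59 and 110 in WT. These were 1.23, 1.69 and 1.54 CPM against 0.873, 0.929 and 1.65 CPM. WT heart 3 was near the top of the *Smyd1-KO* range and the other WT hearts were below it. The log2 fold change was 0.37 ± 0.306 (95% interval −0.35 to 1.09, adjusted *P* = 0.492).

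*Bid* (ENSMUSG00000004446, chr6:120891930-120916853, minus strand), which links caspase 8 to the mitochondrion, was at 12.9, 9.25 and 7.10 CPM in *Smyd1-KO* and at 10.3, 11.1 and 9.99 CPM in WT. The *Smyd1-KO* hearts spread to both sides of the closely grouped WT hearts. The log2 fold change of −0.10 ± 0.220 (95% interval −0.62 to 0.41, adjusted *P* = 0.810) became 0.08 without *Smyd1-KO* heart 3. Its exons share 628 bases with those of *Bcl2l13* on the opposite strand, which received 38087 counts over the 6 hearts, so without strand part of the *Bid* counts could be reads of *Bcl2l13*. *Bad* (ENSMUSG00000024959, chr19:6941861-6951899, plus strand), held inactive by phosphorylation through survival kinases, was at 14.8, 16.1 and 19.2 CPM in *Smyd1-KO* and at 20.9, 17.1 and 15.4 CPM in WT. The 2 ranges covered each other almost wholly, and the log2 fold change was −0.09 ± 0.157 (95% interval −0.46 to 0.28, adjusted *P* = 0.753). *Bad* shares 524 exonic bases with *Gpr137* on the opposite strand.

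None of the 3 anti-apoptotic members was called, and the genotypes overlapped in each. *Mcl1* (ENSMUSG00000038612, chr3:95658788-95663176, plus strand), whose short-lived protein is needed by cardiomyocytes, was at 193, 210.6 and 225 CPM in *Smyd1-KO* and at 220.5, 221.4 and 228.6 CPM in WT. *Smyd1-KO* heart 1 was the lowest and *Smyd1-KO* heart 3 lay among the WT hearts. The log2 fold change was −0.09 ± 0.0851 (95% interval −0.29 to 0.11, adjusted *P* = 0.539). *Bcl2l1* (ENSMUSG00000007659, chr2:152780668-152831728, minus strand), which encodes BCL-XL, a guard of erythroid cells and neurons among others, was at 68.3, 76.1 and 64.7 CPM in *Smyd1-KO* and at 68.3, 62.9 and 61.5 CPM in WT. *Smyd1-KO* heart 2 was the highest, and *Smyd1-KO* heart 1 was level with WT heart 1. The log2 fold change was 0.12 ± 0.0873 (95% interval −0.09 to 0.32, adjusted *P* = 0.445). *Bcl2* (ENSMUSG00000057329, chr1:106538178-106714274, minus strand), the founding survival gene of the family, was at 23.6, 29.7 and 24.6 CPM in *Smyd1-KO* and at 33.2, 30.1 and 25.0 CPM in WT. WT hearts 1 and 2 were the highest, and WT heart 3 was level with the lower *Smyd1-KO* hearts. The log2 fold change was −0.18 ± 0.141 (95% interval −0.51 to 0.15, adjusted *P* = 0.467).

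The intervals of the log2 fold change limit the size of any difference. For 6 members, *Bax*, *Bak1*, *Bad*, *Bcl2l11*, *Bcl2l1* and *Mcl1*, the whole 95% interval lay inside 0.5 to either side of 0. The interval of *Bcl2* passed this limit on the lower side, at −0.51, and that of *Bid* at −0.62. The intervals of *Bbc3* and *Pmaip1* reached 1.05 and 1.09 on the upper side.

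**Figure D2:**
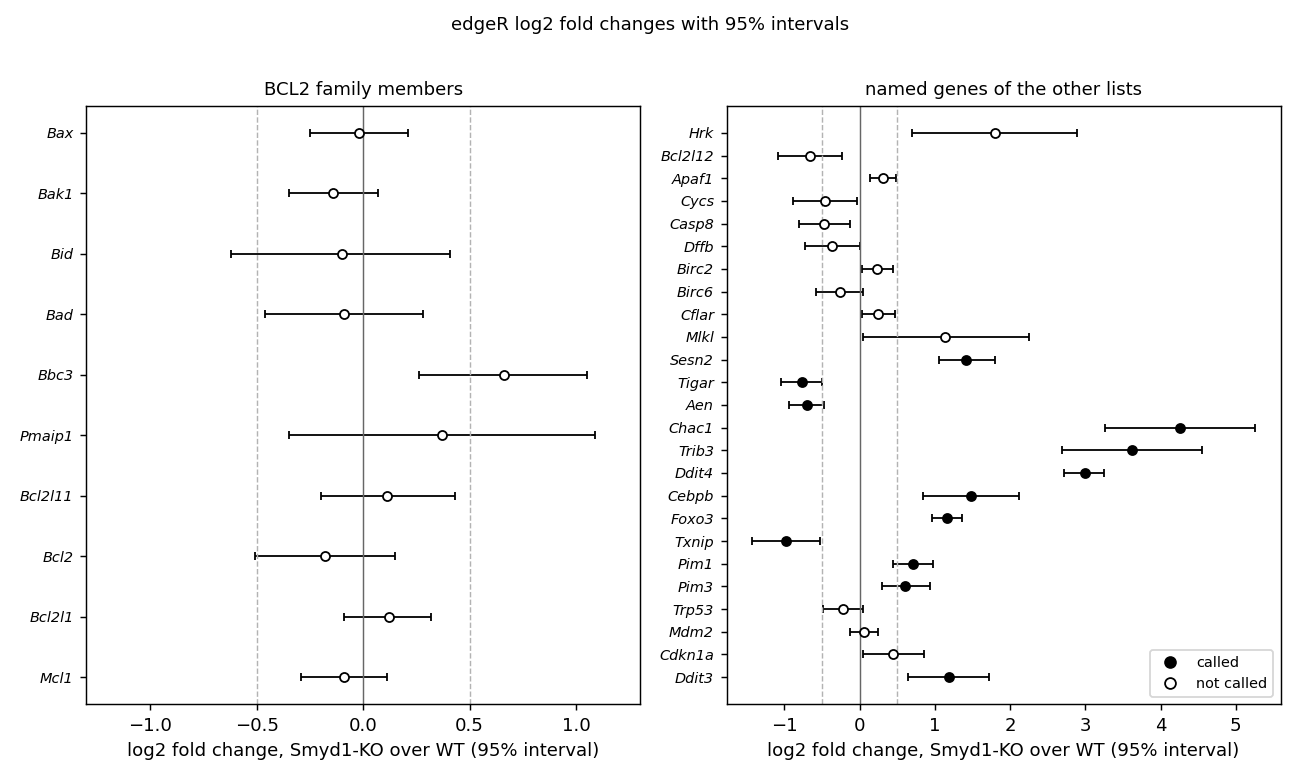
edgeR log2 fold changes of *Smyd1-KO* over WT with 95% intervals, for the 10 BCL2 family members (left) and for the named genes of the other lists (right, wider axis), with filled points for called genes and dashed lines at 0.5 to either side of 0. Among the members *Bbc3* has the one interval that excludes 0 (0.26 to 1.05), and on the right *Chac1* lies farthest from 0 at 4.26.

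Between genes, levels were compared as CPM per kb of exonic length. This length covers the exons of all annotated transcripts of a gene, whichever are in use, and the size of a difference between genes depends on it. In WT hearts *Mcl1* was the highest member at 65.4 ± 1.29 CPM per kb (SD, n = 3), followed by *Bax* at 51.5 ± 5.75, *Bak1* at 21.6 ± 1.93 and *Bcl2l1* at 14.0 ± 0.776 CPM per kb. These 4 levels were apart in every heart of either genotype, and all 4 exceeded every BH3-only gene and *Bcl2*. Next in WT came *Bad* at 6.97 ± 1.11 CPM per kb, and then *Bbc3* (4.80 ± 0.767), *Bcl2l11* (4.48 ± 0.745), *Bcl2* (3.22 ± 0.455) and *Bid* (2.95 ± 0.157), whose neighbours in that order overlapped between hearts. *Pmaip1* was lowest at 0.421 ± 0.159 CPM per kb.

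In *Smyd1-KO* hearts the order of the 10 levels per kb was kept but for 1 exchange. *Bbc3* stood at 7.56 ± 1.04 CPM per kb, above *Bad* at 6.53 ± 0.886, although the ranges of these neighbours overlapped. The ratio of *Bbc3* to *Bad*, chosen after its values were seen, was 1.50, 1.18 and 0.878 in *Smyd1-KO* hearts and 0.648, 0.773 and 0.651 in WT hearts. All 3 *Smyd1-KO* ratios were above the WT ratios, which is a description of the pair and not a test.

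Opposing members were set against each other as 4 ratios of RNA levels per kb in each heart, which do not give the balance of the proteins. *Bax* exceeded *Bcl2* 20.7, 15.5 and 17.8 times in *Smyd1-KO* and 16.0, 14.7 and 17.6 times in WT. *Bax* exceeded *Bcl2l1* 3.59, 3.04 and 3.39 times in *Smyd1-KO* and 3.90, 3.52 and 3.57 times in WT. The genotypes overlapped in both ratios, with *Smyd1-KO* heart 1 highest in the former and WT heart 1 highest in the latter. *Bak1* was at 0.363, 0.303 and 0.297 of the level of *Mcl1* in *Smyd1-KO* and at 0.368, 0.315 and 0.306 in WT. *Bcl2l11* was at 0.0904, 0.0797 and 0.0690 of the level of *Mcl1* in *Smyd1-KO* and at 0.0562, 0.0746 and 0.0745 in WT. These also overlapped, and *Smyd1-KO* heart 1 again had the highest share of *Bcl2l11*.

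**Figure D3:**
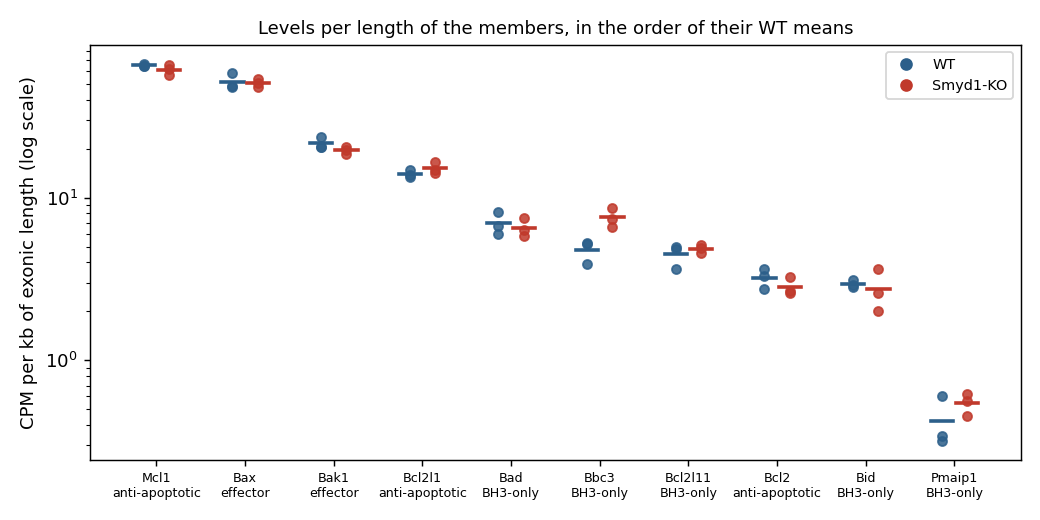
Levels of the 10 members as CPM per kb of exonic length (log axis) in each WT heart (blue) and *Smyd1-KO* heart (red), with a line at each mean, in the order of the WT means. The levels run from *Mcl1* (65.4 CPM per kb in WT) to *Pmaip1* (0.421 CPM per kb in WT), and *Bbc3* and *Bad* exchange places between the genotypes.

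Of 13 further genes of the family, 9 were tested and 0 were called by edgeR, although 2 were higher and 3 lower at an unadjusted *P* under 0.05. Of all tested genes, 25.1% passed that limit. The genotypes did not overlap in 6 of the 9, beside 31.3% of all tested genes. Called by DESeq2 were 3, *Hrk*, *Bcl2l12* and *Bok*, where it called 5.94% of all genes it tested higher and 3.27% lower. *Hrk*, a BH3-only gene known from neurons, had the lowest counts of these 3 and was at 3.44, 1.74 and 2.40 CPM in *Smyd1-KO* and at 0.302, 1.07 and 0.796 CPM in WT. The genotypes did not overlap, and the log2 fold change was 1.80 ± 0.467 (edgeR adjusted *P* = 0.0704, DESeq2 adjusted *P* = 0.00112). *Bcl2l12*, a divergent member linked to inhibition of caspases and p53, was at 17.0, 12.9 and 11.7 CPM in *Smyd1-KO* and at 19.2, 20.4 and 26.2 CPM in WT. All *Smyd1-KO* hearts were below all WT hearts, the log2 fold change was −0.66 ± 0.184 (edgeR adjusted *P* = 0.0814, DESeq2 adjusted *P* = 0.0118), and without *Smyd1-KO* heart 1 edgeR called it lower at −0.83 with an adjusted *P* of 0.0324. *Bok*, an effector-like member named here because DESeq2 called it, was at 28.9, 32.6 and 33.2 CPM against 56.5, 46.1 and 35.1 CPM, with a log2 fold change of −0.54 ± 0.170 (edgeR adjusted *P* = 0.109, DESeq2 adjusted *P* = 0.0413).

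Downstream of the mitochondrion, edgeR and DESeq2 each called 0 of 10 tested genes of the apoptosome and of mitochondrial release, 0 of 7 caspase and DNA fragmentation genes, 0 of 6 inhibitor of apoptosis genes and 0 of 11 death receptor and necroptosis genes. At an unadjusted *P* under 0.05, edgeR found 1 higher and 1 lower, 0 higher and 2 lower, 1 higher and 0 lower, and 2 higher and 0 lower in these lists, in that order. Of all tested genes, edgeR called 4.28% in either direction, and 25.1% had an unadjusted *P* under 0.05. *Apaf1*, the scaffold of the apoptosome, was at 63.3, 62.6 and 67.4 CPM in *Smyd1-KO* and at 50.2, 52.3 and 53.4 CPM in WT. Its genotypes were apart with little spread within either, and the log2 fold change was 0.31 ± 0.0711 (95% interval 0.14 to 0.48, edgeR adjusted *P* = 0.0526, DESeq2 adjusted *P* = 0.0225), below the 0.5 that a call required. *Cycs*, the gene of cytochrome c and also part of the respiratory chain, was at 127.4, 174.3 and 154.7 CPM in *Smyd1-KO* and at 261.6, 197.8 and 170.1 CPM in WT, with a log2 fold change of −0.46 ± 0.181 (adjusted *P* = 0.167). *Smyd1-KO* heart 2 was above WT heart 3, so the 2 groups overlapped.

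No caspase was called by either tool. *Casp8*, the initiator that cleaves BID, was at 10.4, 8.41 and 10.1 CPM in *Smyd1-KO* and at 15.0, 12.2 and 12.7 CPM in WT. The genotypes did not overlap, and the log2 fold change was −0.47 ± 0.146 (edgeR adjusted *P* = 0.108, DESeq2 adjusted *P* = 0.0390). *Dffb*, the nuclease that cuts DNA between nucleosomes, had a log2 fold change of −0.37 ± 0.155 (adjusted *P* = 0.196). In the lists of inhibitors and receptors, the log2 fold changes with the smallest *P* were 0.23 ± 0.0869 for *Birc2* (adjusted *P* = 0.154) and −0.26 ± 0.133 for *Birc6* (adjusted *P* = 0.268), ubiquitin ligases of the inhibitor of apoptosis family. They were 0.25 ± 0.0942 for *Cflar* (adjusted *P* = 0.158), whose product FLIP blocks caspase 8, and 1.14 ± 0.471 for *Mlkl* (adjusted *P* = 0.188), the pore former of necroptosis, which received only 5 to 21 counts per heart. Without *Smyd1-KO* heart 1, *Tnfrsf21*, a death receptor gene, was called lower at −1.12 with an adjusted *P* of 0.0339. That fit called 1256 genes in all, against 830 with every heart kept, and *Tnfrsf21* was called in no other fit.

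**Figure D4:**
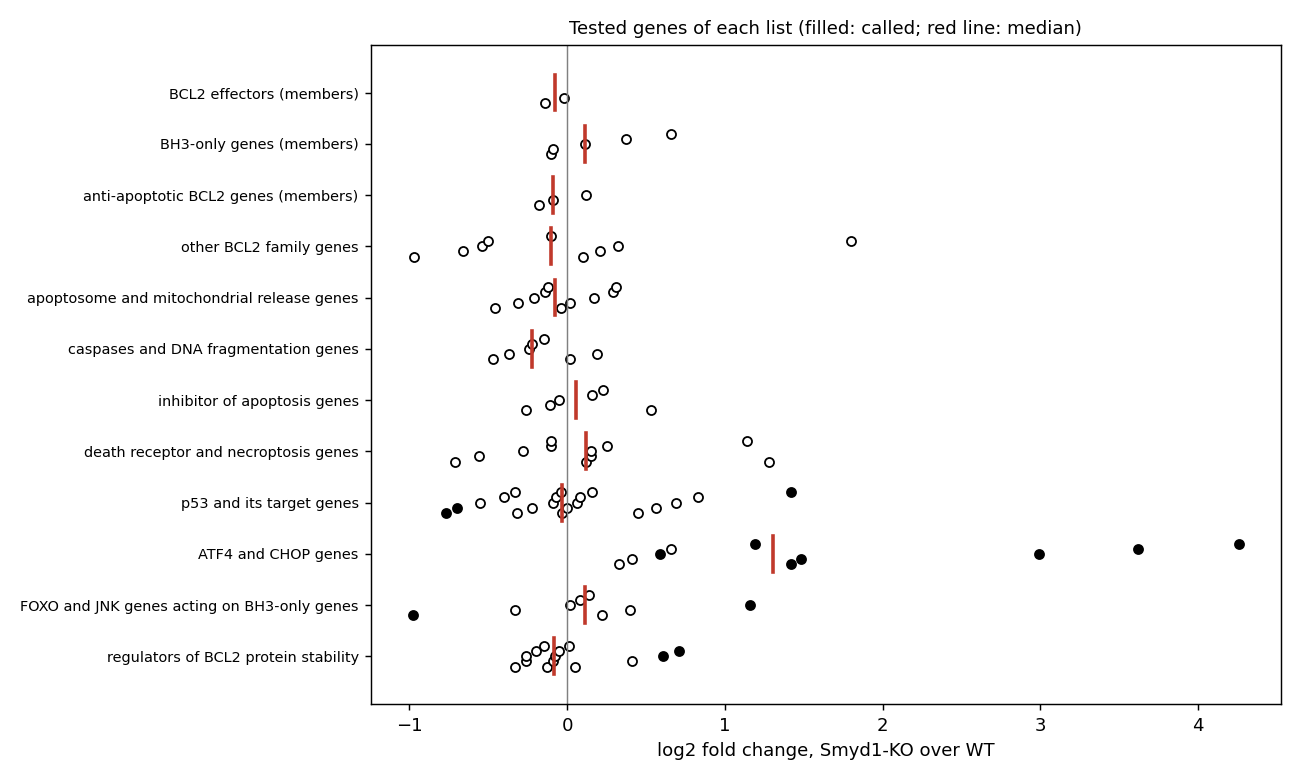
edgeR log2 fold changes of the tested genes of each list, 1 circle per gene, filled where called, with a red line at the list's median (vertical offsets only separate the circles). The 3 lists of members and the lists of apoptotic machinery hold open circles only, and the ATF4 and CHOP list has 7 filled circles and a median of 1.31.

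The factors known to drive BH3-only genes were examined next. For p53, which induces *Bbc3*, *Pmaip1* and *Bax*, 20 genes comprising *Trp53* and its targets were tested; 1 was called higher and 2 lower, beside 4.28% of all tested genes called in either direction. DESeq2 called 4 higher and 3 lower, where it called 5.94% of all genes it tested higher and 3.27% lower. These were the same 3 genes, with *Plk2* (0.83), *Eda2r* (0.70) and *Polk* (0.57) higher and *Trp53inp1* (−0.54) lower on the log2 scale. At an unadjusted *P* under 0.05, edgeR found 5 of the 20 higher and 5 lower, beside 25.1% of all tested genes. The genotypes did not overlap in 10 of the 20, beside 31.3% of all tested genes. *Trp53* was at 157.5, 131.8 and 123.5 CPM in *Smyd1-KO* and at 162.3, 147.2 and 169.8 CPM in WT, and the log2 fold change was −0.22 ± 0.112 (adjusted *P* = 0.279). *Mdm2*, a target that also degrades p53, was at 68.9, 78.8 and 72.0 CPM against 71.4, 69.6 and 69.6 CPM, a log2 fold change of 0.06 ± 0.0758 (95% interval −0.12 to 0.24, adjusted *P* = 0.662). For both genes the genotypes overlapped. *Cdkn1a*, the cell cycle inhibitor p21, was at 11.2, 13.4 and 15.5 CPM against 10.4, 10.6 and 8.23 CPM, a log2 fold change of 0.45 ± 0.172 (adjusted *P* = 0.161).

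The 3 called genes of the p53 list moved in both directions. *Sesn2*, a stress sensor that is also a target of ATF4, rose by 1.42 ± 0.161 on the log2 scale (adjusted *P* = 0.00664). *Aen*, the apoptosis enhancing nuclease, fell by 0.70 ± 0.100, where the adjusted *P* was 0.0142, and *Tigar*, a regulator of glycolysis, fell by 0.77 ± 0.117, where it was 0.0169. Of the 6 fits that left out a heart, the one without WT heart 2 lost the call on *Sesn2* (adjusted *P* = 0.0522), at a log2 fold change of 1.45. That on *Aen* held in 3 of 6 fits that left out a heart, those without *Smyd1-KO* heart 1, *Smyd1-KO* heart 3 or WT heart 1, and that on *Tigar* in 2, those without *Smyd1-KO* heart 1 or WT heart 1, with adjusted *P* of up to 0.0858 for both. Without *Smyd1-KO* heart 1, edgeR also called *Plk2* higher (adjusted *P* = 0.0122) and *Zmat3* lower (adjusted *P* = 0.0327), in a fit that called 1256 genes in all, against 830 with every heart kept.

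ATF4 and its partner CHOP (from *Ddit3*) answer amino acid shortage and a stressed endoplasmic reticulum, and CHOP is known to act on *Bcl2l11* and *Bbc3*. All 10 genes of this list had positive log2 fold changes, 7 were called higher and 0 lower, and the median was 1.31. Of all tested genes, 2.86% were called higher and 1.42% lower. The list was chosen with earlier results of these data known, so its counts describe these genes and are not a test of the response. DESeq2, and edgeR without *Smyd1-KO* heart 1, also called *Atf5* higher (0.66 and 0.89). *Chac1*, which degrades glutathione, was at 7.51, 21.0 and 17.1 CPM in *Smyd1-KO* and at 0.588, 0.914 and 0.871 CPM in WT, a log2 fold change of 4.26 ± 0.426 (adjusted *P* = 0.00464). *Trib3*, a pseudokinase induced by CHOP, was at 11.4, 31.8 and 29.8 CPM against 1.80, 2.16 and 1.98 CPM, a log2 fold change of 3.62 ± 0.396 (adjusted *P* = 0.00647). In both genes *Smyd1-KO* heart 1 was the lowest of its genotype and still above every WT heart.

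*Ddit4*, an inhibitor of mTORC1 that also responds to low oxygen, was at 606.9, 539.6 and 517.5 CPM in *Smyd1-KO* and at 75.9, 63.2 and 70.9 CPM in WT, a log2 fold change of 2.99 ± 0.114 (adjusted *P* = 0.000126). *Cebpb*, a transcription factor of the same response, rose by 1.48 ± 0.272 (adjusted *P* = 0.0292). *Ddit3* was at 12.0, 20.1 and 22.2 CPM against 7.59, 8.19 and 8.06 CPM, a log2 fold change of 1.19 ± 0.227 (adjusted *P* = 0.0326). *Ddit4* and *Chac1* were called with any 1 heart left out, *Trib3* in all but the fit without WT heart 2 (adjusted *P* = 0.0522), and *Cebpb* and *Ddit3* only in the fit without *Smyd1-KO* heart 1, with adjusted *P* of up to 0.134 and 0.139.

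FOXO3, which AKT keeps out of the nucleus, is known to induce *Bcl2l11* and *Bbc3*. *Foxo3* was at 115.1, 107.7 and 120.8 CPM in *Smyd1-KO* and at 49.3, 55.6 and 49.2 CPM in WT. Every *Smyd1-KO* heart was far above every WT heart, and the log2 fold change of 1.16 ± 0.0848 (adjusted *P* = 0.00122) was called with any 1 heart left out. Where 2.86% of all tested genes were called higher, *Foxo3* was the only one of its list of 8. The only one called lower was *Txnip*, an inhibitor of thioredoxin and a FOXO and glucose responsive gene, at 17.8, 21.1 and 29.1 CPM against 42.3, 51.2 and 40.5 CPM, where the log2 fold change was −0.98 ± 0.190 (adjusted *P* = 0.0338). The call on *Txnip* held only in the fits without *Smyd1-KO* heart 1 or *Smyd1-KO* heart 3, and the adjusted *P* was as high as 0.142 in the others.

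The RefSeq promoters of the members (GRCm38.p6, 250 bases before to 50 after a start site) were searched on both strands for the cores that these factors recognise. Promoters matched 9 of the 10 members in 15 windows, as several genes have more than 1 start site. The FOXO core GTAAACA was in 1 of the 3 windows of *Bbc3* and in 1 of the 2 of *Bcl2l11* and in no window of the other 7, and 3.65% of all 32851 promoter windows hold it. Both stretches are printed 5′ to 3′ on the strand of the gene, with the core in capitals, which in *Bbc3* reads as its reverse complement TGTTTAC.
*Bbc3* (chr7:16310074-16310133, plus strand, core at −167 from the start site): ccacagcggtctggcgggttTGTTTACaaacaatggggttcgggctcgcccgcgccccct
*Bcl2l11* (chr2:128125791-128125850, plus strand, core at −227 from the start site): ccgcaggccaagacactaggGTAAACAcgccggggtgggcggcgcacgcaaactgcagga
The core of *Bcl2l11* shares its final bases with a match to the hypoxia core GCGTG on the other strand. A match describes the letters and does not show binding.

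The p53 half-site was in 8.36% of all windows and, among members, in that of *Bax* alone, shown for the member most often used to illustrate p53 control, with the half-site in capitals.
*Bax* (chr7:45467057-45467119, minus strand, half-site at −201 from the start site): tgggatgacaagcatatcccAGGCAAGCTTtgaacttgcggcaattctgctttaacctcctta
The ATF4 core TGATGNAA was in 0 of the 15 windows and in 3.97% of all. The hypoxia cores were common, ACGTG in 19.6% of all windows and in 2 of the 15 (*Bax* and *Bbc3*), and GCGTG in 32.4% of all windows and in 8 of the 15 (*Bad*, *Bbc3*, *Bcl2l1* and *Bcl2l11*).

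Among 14 regulators of the stability or activity of BCL2 proteins, 2 were called higher and 0 lower, beside 2.86% and 1.42% of all tested genes. At an unadjusted *P* under 0.05, 3 were higher and 4 lower, where 25.1% of all tested genes passed that limit. Of the 14, 9 had negative log2 fold changes. The called genes, *Pim1* and *Pim3*, encode kinases that phosphorylate BAD, and the other kinases of the list, such as *Pim2*, *Akt1* and *Akt2*, were not called. *Pim1* was at 133.6, 115.3 and 103.3 CPM in *Smyd1-KO* and at 75.1, 74.4 and 66.3 CPM in WT, a log2 fold change of 0.71 ± 0.111 (adjusted *P* = 0.0187). *Pim3* was at 133.8, 169.4 and 160.4 CPM against 114.5, 102.2 and 86.1 CPM, a log2 fold change of 0.61 ± 0.133 (adjusted *P* = 0.0449). The genotypes did not overlap in either. In the whole list they did not overlap in 6 of the 14, beside 31.3% of all tested genes. With single hearts left out, *Pim1* was called only without *Smyd1-KO* heart 1 or *Smyd1-KO* heart 3 and *Pim3* only without *Smyd1-KO* heart 1, and the adjusted *P* reached 0.0977 and 0.166. The median log2 fold change of the 14 was −0.08.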

How the data were processed

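The authors selected poly A RNA, sequenced paired ends, aligned reads to mm10 with STAR through bcbio-nextgen and deposited raw read counts per gene (Ensembl IDs with symbols). The counting tool, its annotation and its strand setting are not given in the sources used here. A deposited table of normalized values was not used. The 10 members and all gene lists were chosen with earlier results of these data known. Hearts were grouped by their genotype label, 3 each. The counts were fitted over all genes with edgeR 4.0.16 in R 4.3.3 (filterByExpr, TMM, quasi-likelihood test with Benjamini-Hochberg adjustment, genotype as the only term), after the procedure was tested on simulated data. The SE is the size of the log2 fold change over the square root of the F statistic, and 95% intervals use the t quantile of the fit. Where a symbol had several rows (1 listed gene, *Ddit3*), the row with the most counts was taken. Exonic lengths, overlaps and coordinates come from GENCODE M21 (GRCm38, the sequence of mm10). The alternatives were DESeq2 1.42.0, limma voom (limma 3.58.1), 2 other normalizations, fits without mitochondrial and haemoglobin genes, without the filter on low counts or with at least 10 counts in every heart, no limit on the fold change, glmTreat, a replicate block, plain library sizes for levels, and each heart left out. Named were *Smyd1*, the members, up to 4 called genes of each other list by size of change, the 2 genes of smallest *P* where fewer than 2 were called, and *Trp53*, *Mdm2*, *Cdkn1a*, *Ddit3* and *Apaf1*. One further gene of this rule is not reported here. Other listed genes are named where DESeq2 or a fit without a heart called them, chosen after their values were seen. Depth ranged from 48627825 to 64217529 counts.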

Additional observations from a re-analysis of the deposited data

How the results depend on the processing

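The 95% interval lay within 0.5 of 0 on the log2 scale for 6 of the 10 members, and *Pmaip1*, with 52 to 110 counts per heart, had the widest. The count of members called higher moved from 0 to 1 with DESeq2, through *Bbc3* (0.66), and the counts called higher and lower stayed at 0 in the other 15 fits. Left-out hearts turned the sign of *Bax* (−0.07 to 0.08), *Bid* (−0.35 to 0.08), *Bad* (−0.20 to 0.05) and *Bcl2l11* (−0.01 to 0.20), none of which was called. Scaling by RLE or the upper quartile kept every member's sign, and plain library sizes moved every member's mean level by less than its SD.

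Over all genes, 830 were called, against 1747 with DESeq2, 154 with glmTreat and 97 to 1256 with a heart left out. The further BCL2 family list had 0 called, against 3 with DESeq2, 1 with no filter (*Hrk*) and 0 to 1 with a heart left out, and the death receptor list 0, against 0 to 1 with a heart left out. The p53 list had 3, against 7 with DESeq2, 1 with glmTreat and 0 to 5 with a heart left out. The ATF4 and CHOP list had 7, against 4 with glmTreat and 2 to 8 with a heart left out. The FOXO and JNK list had 2, against 1 with glmTreat and 1 to 2 with a heart left out, and the stability list 2, against 0 with glmTreat and 0 to 2 with a heart left out. Fewer samples are fitted where a heart is left out. Without *Smyd1-KO* heart 1, however, more genes were called over all genes (1256), and without any other heart fewer were called (97 to 501). The cause was not tested for any setting.

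Genotypes share replicate numbers, but the hearts come from different embryos. Deviations of same-numbered hearts from the means of their genotypes correlated at −0.216, −0.054 and −0.182, and those of differently numbered hearts at −0.156 to 0.286. Deviations from a mean of 3 hearts depend on one another, so these correlations cannot settle whether the numbers pair the hearts. With the replicate block, 59 genes were called in all, 0 members, 0 of the p53 list, 3 of the ATF4 and CHOP list, 1 of the FOXO and JNK list (*Foxo3*) and 0 of the stability list, and *Bbc3* kept its 0.66 with an adjusted *P* of 0.135.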
